A study of Drosophila melanogaster with 6 samples.

Results

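Of the 23932 features in the deposited count table, 7 are the ligand-gated chloride channel genes described here: Rdl, Lcch3, Grd, GluClalpha, ort, HisCl1 and pHCl-1. They were chosen by name, as receptors for GABA, glutamate and histamine and 1 pH-sensitive relative. The rule uses no measured value, but earlier results of these data were known when it was written. All 7 were found by their FlyBase identifiers. They were followed in T4/T5 neurons, the direction-selective cells of the fly optic lobe, sorted by GFP from dissociated brains of climbing third-instar Drosophila melanogaster larvae raised at 25 °C. In the knockdown group R23G12-Gal4 drove UAS-DRGX-IR, an inverted-repeat hairpin against Drgx, which encodes a paired-like homeobox transcription factor. The control group had UAS-cherry-IR instead, a hairpin whose target is the cherry fluorescent protein. Both groups carried 1 copy each of R23G12-Gal4 and of the membrane marker UAS-CD8-GFP, and each had 3 libraries. By the order of the chromosomes in the labelled genotypes the 2 hairpins sit on different chromosomes, so hairpin position and target cannot be told apart. The labels do not say whether the libraries came from separate animals or sorts, so p-values measure only the spread between these samples.

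These channels belong to the Cys-loop receptor superfamily, whose members assemble as pentamers around a central pore and open when a transmitter binds outside the membrane. In most mature neurons the opening of a chloride pore holds the membrane near rest or hyperpolarises it, so GABA, and in insects glutamate and histamine too, can act as fast inhibitory transmitters. T4 and T5 neurons of the adult fly receive GABAergic inhibition, and T4 also receives glutamatergic input from the medulla neuron Mi9 through GluClalpha. The larval neurons measured here are still growing their arbors, before these synapses work.

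Total counts ran from 29587960 to 44054609 per library, where 3 counts equal 0.069 to 0.102 CPM, the count per 1000000 counts of the TMM-scaled library, a unit that corrects for depth and not for gene length. Drgx stood at 2110 to 2160 CPM in the control libraries and 663.4 to 729 CPM in the knockdown libraries, a log2 fold change of −1.60 (SE 0.0512, edgeR adjusted p 7.29e-08). All 8 listed T4/T5 lineage markers were detected, with summed levels of 4992 to 5278 CPM in control and 3323 to 3493 CPM in knockdown. Sox102F, SoxN, dac and bi, 4 of the 8, were called lower (edgeR adjusted p under 0.05), against 4.11% of all tested features. The 4 not called ran from −0.29 for ato to 0.22 for acj6 on the log2 scale. Glial markers, 8 of 8 tested, summed to 612.1 to 694.4 CPM in control and 833.4 to 912.5 CPM in knockdown. Most of these sums was nrv2, at means of 460 and 600 CPM. nrv2, Gs2 and loco, 3 of the 8, were called higher, against 2.1% of all tested features. The 5 not called ran from 0.01 for repo (edgeR adjusted p 0.991) to 0.75 for gcm (0.0933) on the log2 scale. For neuroblast markers, 6 of 6 tested, the sums were 208.6 to 241.2 and 243.3 to 269.2 CPM. None of these 6 was called, against 6.21% of all tested features. Their log2 fold changes went both ways, from −0.47 for dpn to 0.39 for ase, with a median of −0.05. The lamina list, 4 of 4 tested, went from 237.6 to 253.6 CPM up to 391.2 to 437.6 CPM, most of it bab2. Of the 4, only bab2 was called higher (0.77, edgeR adjusted p 4.31e-05), against 2.1% of all tested features. The 3 not called ran from −0.31 for svp to 0.77 for eya (edgeR adjusted p 0.858) on the log2 scale. Of 6 photoreceptor markers 3 were tested, with sums over the list of 119.2 to 124.4 CPM in control and 109.8 to 134.2 CPM in knockdown, and ninaE, Arr2 and trp had no count in any library. Nearly all of these sums was norpA, at means of 120.7 and 120.1 CPM. The means were 0.302 and 0.512 CPM for chp and 1.33 and 1.35 CPM for gl. Of 4 hemocyte markers 1 was tested, Ppn, which had only 1, 6 and 9 counts in control. Ppn rose by 4.495 on the log2 scale (edgeR adjusted p 0.00425), or by 4.05 to 5.18 with 1 library left out. The hemocyte sums were 0.0312 to 1.06 CPM in control and 2.759 to 3.865 CPM in knockdown, and srp and NimC1 had no count. Hml had 40 counts in control replicate 2 and none in any other library, so the knockdown sums were those of Ppn alone. Cholinergic markers summed to 340 to 384.5 CPM in control and 294.8 to 324.3 CPM in knockdown, GABAergic ones to 76.72 to 91.56 and 66.86 to 74.36 CPM, and VGlut, the glutamatergic marker, ran from 11.09 to 23 and from 8.868 to 19.11 CPM. VGAT made up most of the GABAergic sums, at means of 80.6 and 64.3 CPM, against 4.55 and 6.74 CPM for Gad1. The part of other cells in the results below was not tested. Along the second principal component, which held 20.9% of the variance, knockdown replicate 2 lay apart at 50.62, with the other knockdown libraries at −35.49 and −39.09.

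Whether the chloride channels changed with Drgx was the main comparison. pHCl-1 fell 19.8-fold and GluClalpha fell to 80.2% of its control level, while Rdl and Lcch3 did not pass the test. The remaining members, Grd, ort and HisCl1, were too low in these cells to be tested. So 4 of the 7 passed the filter on low counts and 2 of those 4 were called, both lower, where 6.21% of 9932 tested features were called in either direction, 4.11% lower and 2.1% higher. The count fell to 1 in each of the 6 fits that left out a library, where GluClalpha was lost at adjusted p from 0.0509 to 0.0978. The control and knockdown libraries did not overlap for 3 of the 4, all lower, against 12.4% of tested features that were lower without overlap. With so few genes these counts are a description of the members, and pHCl-1 met the count minimum through its control libraries. In bulk RNA of sorted cells, fewer cells that express a gene and less RNA per cell cannot be told apart.

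**Figure D1:**
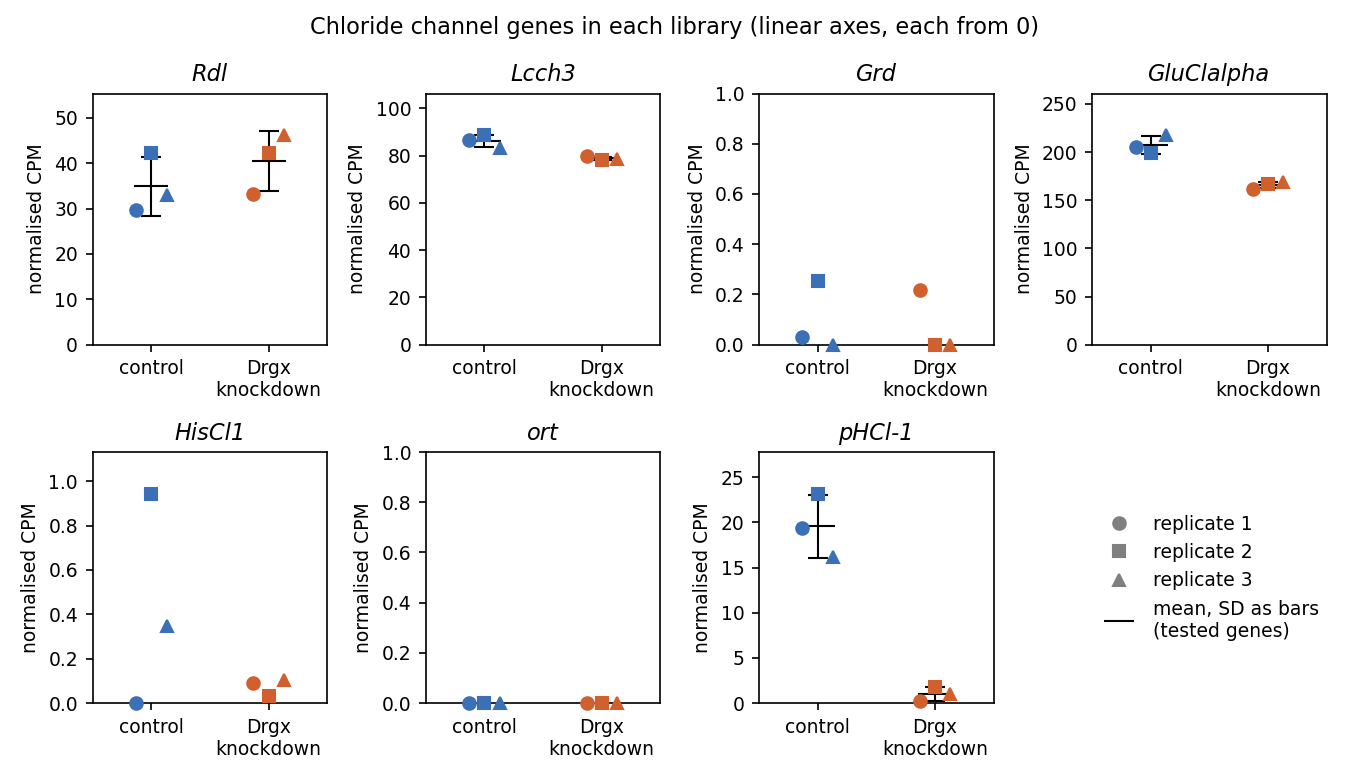
TMM-normalised CPM of each chloride channel gene (vertical axes, linear from 0) in the 3 control (blue) and 3 Drgx knockdown (orange) libraries, with the mean and SD for the 4 tested genes. pHCl-1 drops from 16.2 to 23.16 CPM down to 0.2161 to 1.737 CPM, GluClalpha shifts without overlap, Rdl overlaps, and ort has no count in any library.

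pHCl-1 encodes a chloride channel subunit whose opening depends on extracellular pH. The gene (FBgn0264908) occupies 3L from 15848578 to 15899029 on the minus strand in the BDGP6.54 annotation, the source of all positions given here, with 17 transcripts and 8354 bp of exon, of which 3386 bp are coding. None of its exon sequence is shared with another annotated gene. The control libraries had 621, 1007 and 558 counts, or 19.38, 23.16 and 16.2 CPM. The knockdown libraries had 7, 51 and 39 counts, or 0.2161, 1.737 and 1.032 CPM. Every knockdown library was far below every control library, and the knockdown libraries also differed among themselves, replicate 1 being the lowest. Means were 19.6 ± 3.48 CPM in control and 0.995 ± 0.761 CPM in knockdown (SD, n = 3 each). The log2 fold change was −4.31 (SE 0.520, 95% interval −5.47 to −3.14, edgeR adjusted p 6.62e-04), which is 19.8-fold lower. Of the 408 features called lower, 37 had a larger fall, which put pHCl-1 at rank 38. The call held in all 6 fits that each left out 1 library, with adjusted p from 1.77e-04 to 0.00678. The size of the fall rested in part on single knockdown libraries, at 14.3-fold without replicate 1 and 30.5-fold without replicate 2. In control its CPM was above that of 50.7% of tested features, so this was a gene of middling level and not one at the detection limit.

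GluClalpha encodes the glutamate-gated chloride channel, the target of ivermectin. The gene (FBgn0024963) lies on 3R from 19730715 to 19775231, plus strand, with 11 transcripts and 6633 bp of exon, of which 1707 bp are coding. Its control libraries had 6567, 8644 and 7489 counts, or 204.9, 198.8 and 217.4 CPM. Its knockdown libraries had 5252, 4903 and 6373 counts, or 162.1, 167 and 168.7 CPM. The groups did not overlap, and the gap between them was wider than the spread within either. Group means were 207 ± 9.48 CPM in control and 166 ± 3.42 CPM in knockdown (SD, n = 3 each). This was a log2 fold change of −0.32 (SE 0.0683, 95% interval −0.47 to −0.17, edgeR adjusted p 0.0211). This was among the smallest of the called falls, at rank 389 of 408. The call passed with all 6 libraries and was lost in each of the 6 fits that left out 1, at adjusted p from 0.0509 without knockdown replicate 2 to 0.0978 without control replicate 3, with log2 fold changes from −0.35 to −0.29.

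Rdl encodes the main GABA-gated chloride channel subunit of the fly brain, known from resistance to the insecticide dieldrin. The gene (FBgn0004244) lies on 3L from 9145838 to 9182149, minus strand, with 6 transcripts and 8994 bp of exon, of which 2030 bp are coding. Its control libraries had 29.71, 42.22 and 32.92 CPM, from 952, 1836 and 1134 counts. Its knockdown libraries had 33.31, 42.17 and 46.14 CPM, from 1079, 1238 and 1743 counts. The groups overlapped, since control replicate 2 was above knockdown replicates 1 and 2. The means were 34.9 ± 6.50 and 40.5 ± 6.57 CPM (SD, n = 3 each), with a log2 fold change of 0.21 (SE 0.170, edgeR adjusted p 0.64). The 95% interval ran from −0.17 to 0.60. A fall larger than that of GluClalpha lies outside this interval, and a rise of up to 1.51-fold lies inside it.

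Lcch3 encodes a further GABA receptor subunit, and the ion selectivity of channels that contain it was not measured here. The gene (FBgn0010240) lies on X from 15925105 to 15928529, plus strand, with 1 transcript, 1903 bp of exon and 1488 bp of coding sequence. Its control libraries had 86.73, 88.55 and 83.22 CPM, from 2779, 3851 and 2867 counts. Its knockdown libraries had 79.64, 78.21 and 78.65 CPM, from 2580, 2296 and 2971 counts. All knockdown libraries were below all control libraries, by a small step. The means were 86.2 ± 2.71 and 78.8 ± 0.736 CPM (SD, n = 3 each), with a log2 fold change of −0.13 (SE 0.0836, 95% interval −0.32 to 0.06, edgeR adjusted p 0.533). Antisense neighbours overlap its exons, Ranbp16 over 456 bp (23.96% of its exon length) and a noncoding RNA over 140 bp, and SMART-Seq v4 does not mark strand, so its level is uncertain to that extent. Ranbp16 itself was at 151.8 and 152.6 CPM in control and knockdown, with a log2 fold change of 0.01 (edgeR adjusted p 0.983).

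Grd, ort and HisCl1 were at or near no expression. Grd (FBgn0001134, 3L, 17823333 to 17839767), a GABA receptor subunit, had counts of 1, 11 and 0 in control and of 7, 0 and 0 in knockdown. Most of those reads sat in 1 library of each group, and CG5577 on the other strand covers 1118 bp of its exon, or 27.46%. ort (FBgn0003011, 3R, 19659748 to 19663672), the histamine receptor by which lamina neurons respond to photoreceptors, had 0 counts in all 6 libraries. At 2158 bp of exon, the 3-count limit allows ort up to 0.032 to 0.0474 CPM per kb depending on the library. HisCl1 (FBgn0037950, 3R, 11787176 to 11789393) encodes the other histamine-gated channel, found in adult photoreceptors and lamina glia. Its counts were 0, 41 and 12 in control and 3, 1 and 4 in knockdown, so the groups overlapped, and Sbf on the other strand covers 101 bp of its exon. Without the filter on low counts neither Grd (log2 fold change −0.41, SE 2.11, edgeR adjusted p 0.958) nor HisCl1 (−2.42, SE 1.54, edgeR adjusted p 0.544) passed. Most control counts of both genes came from 1 library, and no difference was detectable.

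The members were then ranked by level within each group, on CPM per kb of exon. In control the order was Lcch3 at 45.3 ± 1.43, GluClalpha at 31.2 ± 1.43, Rdl at 3.89 ± 0.722 and pHCl-1 at 2.34 ± 0.417 CPM per kb (SD, n = 3 each), with no overlap between neighbours down to HisCl1 at 0.230 ± 0.255. HisCl1, Grd and ort overlapped one another in turn. In knockdown the first 3 kept their places, at 41.4 ± 0.387, 25.0 ± 0.515 and 4.51 ± 0.731 CPM per kb. pHCl-1 was then at 0.119 ± 0.0911 CPM per kb and overlapped HisCl1, at 0.0414 ± 0.0204. The order of the upper pair depended on the length used. Per kb of coding sequence GluClalpha led in both groups, at 121 and 97.2 CPM per kb against 57.9 and 53.0 for Lcch3, since most of its annotated exon is untranslated. Rdl, also rich in untranslated exon, came after both on either length, at 17.2 ± 3.20 CPM per kb of coding sequence in control and within 16.41 to 22.73 in knockdown.

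**Figure D2:**
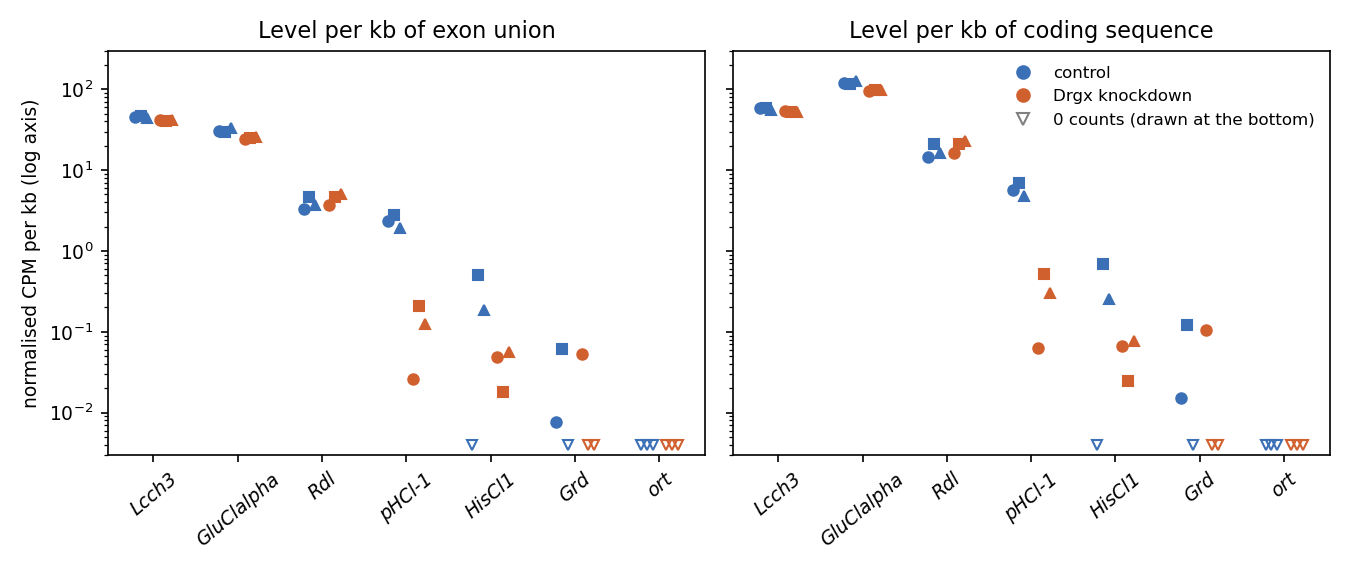
Normalised CPM per kb (logarithmic axis) of the 7 genes in each library, per kb of exon union (left) and per kb of coding sequence (right), with control in blue and Drgx knockdown in orange and open triangles for libraries with 0 counts. Lcch3 and GluClalpha exchange the first place between the panels, and in both panels the knockdown values of pHCl-1 overlap those of HisCl1.

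As a share of the summed level of all 7 members per kb of exon, pHCl-1 went from 2.36% to 3.28% in the control libraries down to 0.0369% to 0.292% in the knockdown libraries. Lcch3 made up 53.1% to 55.5% in control and 57.3% to 59.7% in knockdown, and GluClalpha 35.5% to 39.8% and 34.9% to 35.4%. Per kb of coding sequence the majority member was GluClalpha, with 57.0% to 62.3% in control and 56.5% to 57.5% in knockdown, against 27.3% to 29.3% and 30.2% to 32.4% for Lcch3, while the shares of pHCl-1 were 2.34% to 3.35% and 0.0386% to 0.299%. The summed level was 83.0 ± 1.35 CPM per kb in control and 71.1 ± 0.976 in knockdown (SD, n = 3 each). Within a library, where scaling cancels, the ratio of GluClalpha to Lcch3 per kb of exon was 0.678, 0.644 and 0.7494 in control and 0.584, 0.6127 and 0.6154 in knockdown. These ratios did not overlap, and the two-sided exact permutation p of 0.1 is the smallest that 3 against 3 allows. The ratio of GluClalpha to Rdl overlapped between groups, at 6.384 to 9.353 in control and 4.958 to 6.6 in knockdown (two-sided exact permutation p 0.2).

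The other genes of the chloride channel family were low throughout. CG8916, a GABA receptor-like gene that ends 546 bp before the start of Lcch3 on the same strand, had 1.623, 2.138 and 0.5515 CPM in control and 5.433, 3.168 and 3.23 CPM in knockdown. Those groups did not overlap, where 10.9% of tested features were higher without overlap. The difference did not pass, with a log2 fold change of 1.45 (SE 0.543, edgeR adjusted p 0.2). SecCl, at −0.19 (edgeR adjusted p 0.937), and alka, which encodes a chloride channel of alkaline taste, at −0.72 (edgeR adjusted p 0.749), had means of 0.718 to 1.22 CPM. pHCl-2 and CG6927 did not pass the filter, pHCl-2 having counts in a single control library. None of the 3 tested genes was called, against 6.21% of all tested features, and with so few genes this is a description. ort and GluClalpha lie 67.0 kb apart on 3R in the same orientation, one without counts and the other the member with the highest CPM.

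The nicotinic acetylcholine receptor subunits are cation-selective relatives in the same superfamily and receive the excitatory input of these neurons. Of 10 subunit genes 9 were tested and 5 were called, all lower, with a median log2 fold change of −0.53 over the 9, where 4.11% of all tested features were called lower and their median was 2.65e-05. nAChRalpha3 changed by −3.02 (edgeR adjusted p 0.00151), nAChRalpha6 by −2.31 (1.41e-05) and nAChRalpha1 by −1.15 (0.00157). With 1 library left out nAChRalpha3 ran from −3.72, without knockdown replicate 2, to −2.69. nAChRalpha2, at −0.53, and nAChRbeta1, at −0.45, lost their calls in 3 and 5 of the 6 leave-one-out fits. The 4 tested chloride channel members had a median of −0.22, and whether the channel types differ as groups was not tested. Among the tested genes of both lists, Rdl and nAChRalpha7 (0.10, edgeR adjusted p 0.945) were the ones with log2 fold changes above 0.

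**Figure D3:**
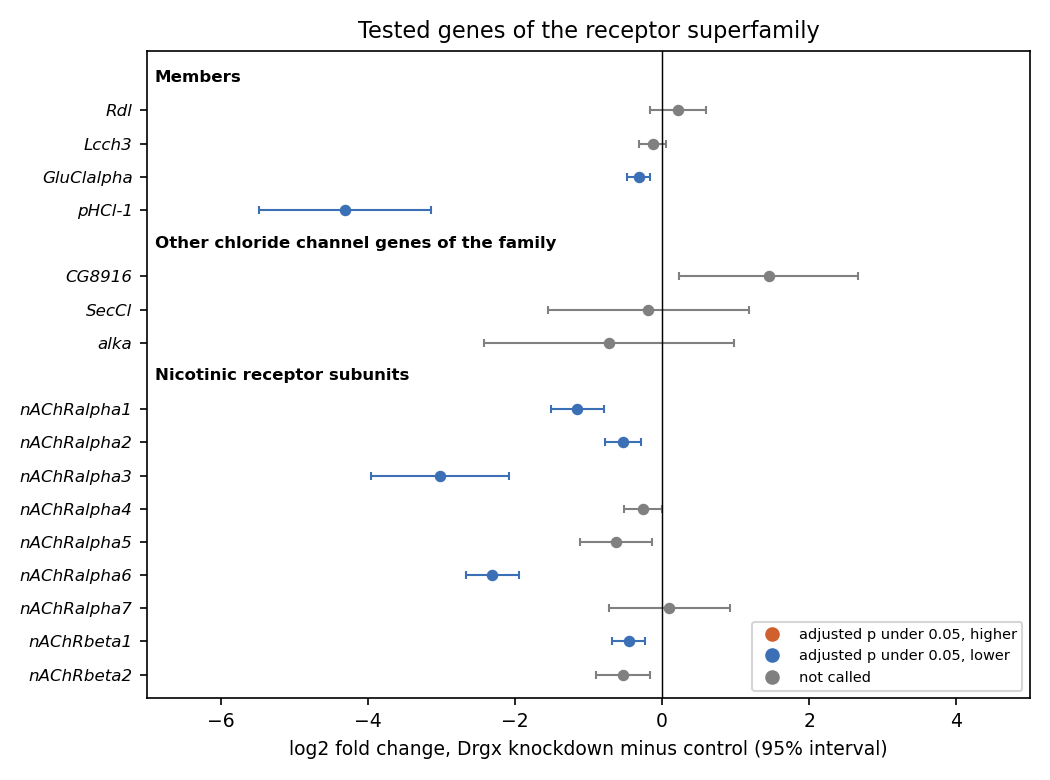
Log2 fold change of Drgx knockdown minus control (horizontal axis) with its 95% interval for the tested chloride channel members, the 3 other tested chloride channel genes and 9 nicotinic subunits, coloured by the edgeR call. pHCl-1 lies at −4.31, GluClalpha at −0.32 with a narrow interval, and the called nicotinic subunits between −3.02 and −0.45.

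Genes that make, move and sense GABA mostly did not pass. Of 8 GABA pathway genes, all tested, 1 was called, against 6.21% of all tested features: GABA-B-R3, a metabotropic GABA receptor gene. It had 37.64, 25.27 and 32.51 CPM in control and 0, 3.849 and 0.7148 CPM in knockdown, with no overlap. Its log2 fold change was −4.42 (SE 0.856, edgeR adjusted p 0.0122), and it was lost without control replicate 1 or 3 or knockdown replicate 3, at adjusted p of at most 0.0645, and with DESeq2 (adjusted p 0.0885). The log2 fold change was −3.84 without knockdown replicate 1, −6.39 without knockdown replicate 2 and −6.50 with limma-voom. The other 7 genes had log2 fold changes from −0.60 to 0.57, and the median of the list was −0.19. Groups did not overlap for 3 of the 8 genes, against 23.3% of all tested features. GABA-B-R2, at −0.22 (edgeR adjusted p 0.123), was lower without overlap and passed with DESeq2 (adjusted p 0.0373). It was singled out after its values were seen. VGAT, the vesicular GABA transporter, was also lower without overlap, at 80.6 ± 6.41 and 64.3 ± 6.42 CPM (SD, n = 3 each; edgeR adjusted p 0.148).

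Of 20 glutamate pathway genes 14 were tested and 4 were called, against 6.21% of all tested features, with a median of −0.28. GluRIA, an ionotropic glutamate receptor gene, fell from 8.81 ± 0.0869 to 3.12 ± 0.436 CPM (SD, n = 3 each; log2 fold change −1.50, edgeR adjusted p 0.00434). The metabotropic receptor gene mGluR fell by 1.41 on the log2 scale (edgeR adjusted p 0.0106) and the transporter gene Eaat2 by 0.67 (edgeR adjusted p 0.00298). mGluR was lost without control replicate 1 or 2, at adjusted p 0.0551 and 0.0542. Gs2, a glutamine synthetase of glia, rose by 0.75 (edgeR adjusted p 0.0104) and lost its call in 3 of the 6 leave-one-out fits. Gs2 and Eaat1 are also on the glial marker list and are part of its sum given above. The 10 tested genes that were not called ran from −3.52 for Neto, an auxiliary subunit of glutamate receptors, to 0.39 for Eaat1. Neto (edgeR adjusted p 0.171) passed without knockdown replicate 2, at −7.84 (adjusted p 0.00284). Nmdar2, an NMDA receptor subunit gene at −0.53 (edgeR adjusted p 0.112), passed with DESeq2 (adjusted p 0.0152) and in edgeR with no filter beyond 1 count (adjusted p 0.0495) or where each library had to hold 10 counts (adjusted p 0.0488). Neto and Nmdar2 were singled out after their values were seen.

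Histamine pathway genes were low, with summed levels of 4.76 to 9.55 CPM in control and 6.83 to 11.65 CPM in knockdown. Of 7 listed, 3 were tested and none was called at an edgeR adjusted p under 0.05, against 6.21% of all tested features. None had an unadjusted p under 0.05 or was called with DESeq2 or limma-voom. Their log2 fold changes ran from −0.60 for e to 2.20 for prt (SE 1.15), and so few genes give a description only. Hdc, which encodes the enzyme that makes histamine, had counts in control replicate 2 alone, and t had 0 counts in every library. Balat also had none, but 98.51% of its exon is shared with an antisense RNA, so its value is uncertain. Chloride transport was examined because it sets the direction of current through these channels. Of 13 listed genes 10 were tested and 1 was called, against 6.21% of all tested features. This was the bestrophin gene Best1, which rose from 3.34 ± 0.646 to 7.69 ± 0.522 CPM (SD, n = 3 each). Its log2 fold change was 1.202 (edgeR adjusted p 0.0269), and it was lost in all 6 fits that left out 1 library, at adjusted p from 0.0543 to 0.101. The potassium-chloride exporter gene kcc was at 80.6 ± 7.84 and 75.2 ± 14.6 CPM (edgeR adjusted p 0.831), and Ncc69, a cotransporter that brings chloride in, was at 19.6 ± 3.06 and 25.5 ± 5.46 CPM (edgeR adjusted p 0.383).

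The list of receptor assembly, RNA editing and clustering genes had 6 of 9 tested genes called, 5 lower and 1 higher, against 6.21% of all tested features, with a median of −0.74. As with the other lists, its genes were chosen with earlier results of these data known. The neuroligins are postsynaptic adhesion proteins, and Nlg4 is known in fly clock neurons to associate with Rdl. Nlg2 had 360.5, 361.9 and 331.1 CPM in control and 53.31, 65.53 and 54.96 CPM in knockdown (log2 fold change −2.60, SE 0.0954, edgeR adjusted p 1.65e-07). Nlg3 changed by −3.28 (edgeR adjusted p 1.98e-05) and Nlg4 by −2.28 (8.33e-04). Nlg1 had no count, so every neuroligin gene with counts was lower in knockdown. hig, which encodes a protein secreted into the cleft of cholinergic synapses, fell from 566 ± 19.5 to 141 ± 3.40 CPM (SD, n = 3 each; log2 fold change −2.01, SE 0.0606, edgeR adjusted p 5.34e-08). Hasp, a matrix protein gene of the same synapses, was at −0.74 and the scaffold gene Grip at 0.72, and each lost its call in 4 of the 6 leave-one-out fits. The adenosine deaminase gene Adar, whose product edits Rdl and GluClalpha RNA, was at 268 ± 6.27 and 234 ± 34.0 CPM (SD, n = 3 each; edgeR adjusted p 0.366). Adar, kcc, Nlg4 and mGluR share 498, 158, 139 and 57 bp of exon with other annotated features and are uncertain to that extent. The same holds for other genes named above, among them dpn (1207 bp), loco (1032 bp), nAChRalpha3 (251 bp), Sox102F (235 bp) and alka (215 bp).

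**Figure D4:**
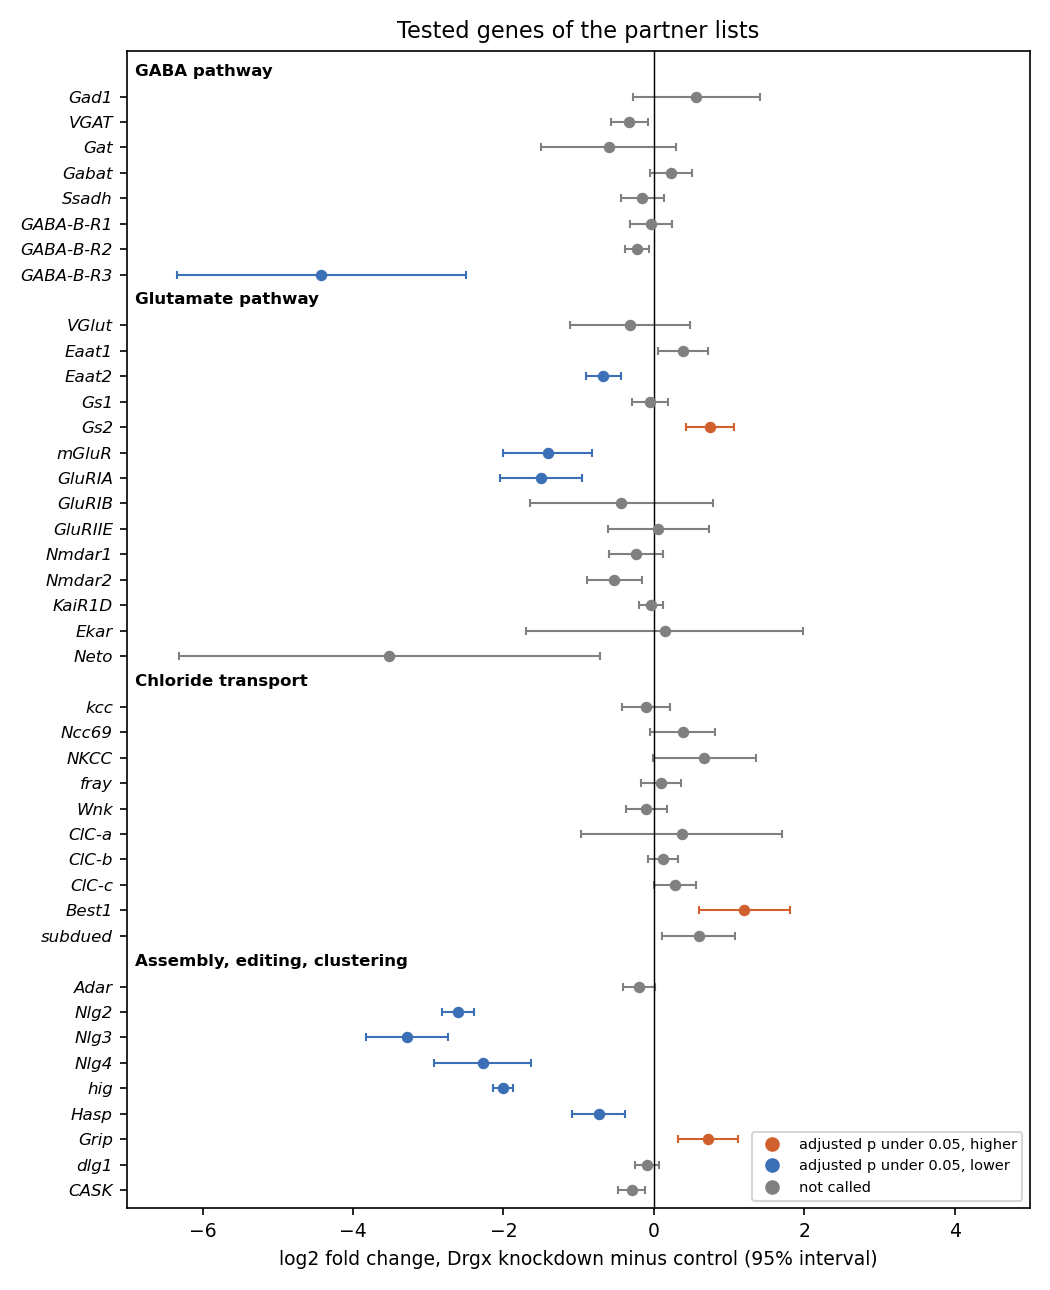
Log2 fold change of Drgx knockdown minus control (horizontal axis) with its 95% interval for every tested gene of the GABA, glutamate, chloride transport and assembly lists, coloured by the edgeR call. GABA-B-R3 at −4.42 and the 3 neuroligins between −3.28 and −2.28 have the largest called falls, while most of the GABA and chloride transport genes are not called.

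By profile over the 6 libraries, the protein-coding genes nearest to pHCl-1 among 8537 compared were CG42750, CG4459 and CG13116, with root-mean-square differences of 0.494, 0.716 and 0.747 on the centred log2 CPM scale. CG42750 went from 135 to 9.47 CPM (log2 fold change −3.83, edgeR adjusted p 4.79e-05). The nearest to GluClalpha were mbf1, Mbs and mRpS17, at 0.0225, 0.0348 and 0.042. With 2 groups of 3 libraries, likeness of this kind mostly reflects the size of the difference between the groups.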

How the data were processed

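RNA was measured in 6 libraries of sorted T4/T5 neurons, 3 per group. The values are raw counts as deposited by the authors, with libraries as columns and FlyBase features as lines. The submitters' processing notes name STAR, DESeq2 and the build BDGP6 without versions or roles. The counting program, the annotation release and the use of strand are not given in the sources used here. Reads in exons shared by 2 genes could therefore be counted for either, both or neither.

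Of 23932 features, 23851 matched the Ensembl 115 annotation of BDGP6.54, which gave symbols, positions and lengths. No line lacked a name. Genes were filtered with filterByExpr at a minimum of 10 counts, scaled with TMM factors and tested with the quasi-likelihood F test of edgeR 4.0.16 in R 4.3.3. All 6 libraries entered 1 fit with no covariate besides the group, and p-values were adjusted by Benjamini-Hochberg over 9932 features, with a threshold of 0.05. Standard errors are the absolute log2 fold change over the root of F, and intervals are at the 95% level. A library's floor is 3 counts, a limit for counting error alone: reads amplified without molecular tags do not count molecules.

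Levels between genes are CPM per kb of the union of annotated exons. Alternatives were DESeq2 1.42.0, limma-voom in limma 3.58.1, DESeq2's size factors, library size only, 2 other filters, the replicate number as a block, each library left out, and coding length. Scripts were tested on simulated data. Named genes were Drgx, the members, the rest of the family, the called genes of the lists and, for each called member, the 3 protein-coding genes with the smallest root-mean-square difference in centred log2 CPM (prior count 2). Members and lists were chosen with earlier results of these data known. Of the list names, 3 were matched through synonyms and Ric-3 was not matched.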

Additional observations from a re-analysis of the deposited data

How the results depend on the processing

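pHCl-1 was called lower and Rdl and Lcch3 were not called under every alternative that could test them. Requiring at least 10 counts in every library left pHCl-1 untested, since knockdown replicate 1 had 7, and so gave 1 called member. GluClalpha was called under all 7 alternatives on the 6 libraries (adjusted p 2.58e-04 to 0.0433) and lost in the 6 fits that left out 1, at −0.35 to −0.29, so those fits called 1 member each. Over all features, DESeq2 called 952 in place of 617, and leaving out 1 library gave 399 to 556 calls, the lowest without control replicate 2. With coding length, 5 of the 7 members kept their place in the order of levels in each group. Same-numbered libraries correlated at 0.0246, −0.017 and −0.0591 in their deviations from the group means across genes. Differently numbered ones ran from −0.0477 to 0.0677, so no sign of pairing by number was seen. With so few libraries these values cannot tell whether libraries of the same number shared a day or sort. With the replicate number as a block, 556 features were called, GluClalpha was at −0.32 (adjusted p 0.0433) and pHCl-1 at −4.47 (adjusted p 0.00149), and Best1 (0.0608) and nAChRbeta1 (0.0551) were not called, while Neto passed at −4.89 (0.0456). For ort the depth allows no more than the 3-count limit per library, and for Grd and HisCl1 most control counts came from 1 library.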
